A study of Mus musculus with 12 samples.

Results

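The genes described here are 9 genes of reactive oxygen metabolism in cultured mouse macrophages, 5 subunits of the phagocyte NADPH oxidase (Cybb, Cyba, Ncf1, Ncf4 and Rac2) and 4 enzymes that clear reactive oxygen species (Sod1, Sod2, Cat and Gpx1). They were taken by gene symbol, and all 9 were found in each of the 3 comparison tables, among 21893 genes at 4 h, 21923 at 24 h and 23248 at 3 d. The RNA-seq libraries were of bone marrow-derived macrophages from wild-type C57BL/6 males aged 8 to 16 weeks, grown for 7 days with 10 ng/mL macrophage colony stimulating factor, which all groups kept receiving. The tested groups had 4 h of monophosphoryl lipid A (MPLA), had 24 h of MPLA, or were taken 3 d after priming of unstated length had ended, and untreated cells were the controls of all 3, with 3 libraries in each of the 4 groups. MPLA is a lipid A derivative of low toxicity that acts on Toll-like receptor 4. Whether libraries within a group were made from different animals or dishes is not stated, so p-values reflect library-to-library spread, part of which may be technical.

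The phagocyte oxidase moves electrons from NADPH across a membrane to oxygen and so makes superoxide. Its catalytic core lies in the membrane, while the cytosolic subunits and a Rac GTPase join it only on activation, and macrophages use it in killing microbes and in signalling. Superoxide dismutases turn superoxide into hydrogen peroxide, which catalase and glutathione peroxidases then remove.

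The deposited tables hold no value per library, so each gene is given as a log2 fold change of MPLA over control with the standard error (SE) implied by the deposited fold change and its p-value. For 11 of the 27 member values the p-value was stored as 0, and the SE is then an upper bound. Absolute depth is unknown. The unscaled ratio of MPLA over control in the authors' deposited tables was 0.859 times the edgeR fold at 4 h, 0.934 times at 24 h and 2.32 times at 3 d, and 0.449, 0.701 and 2.12 times the DESeq2 fold (medians over genes). The scaling applied to the libraries thus differed between the tools, and which of these offsets is the ratio of depths is not stated. Changes depend on how libraries are scaled. Over every tested gene, the median log2 value in the authors' deposited tables was -0.04 at 4 h, -0.05 at 24 h and -0.02 at 3 d with DESeq2, against -0.97, -0.46 and -0.15 with edgeR. DESeq2 values are given unless edgeR is named, and differences between 2 genes of 1 table, which were within 0.01 of each other in the DESeq2 and edgeR columns, are given beside them.

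The start regions below are shown because they belong to the catalytic subunit, to the cytosolic subunit with the largest change at 4 h, to the most raised gene and to the clearance enzyme that was most lowered at 4 h. Each runs from 250 bases before to 50 after the gene's start in RefSeq, build GRCm38.p6, 5′ to 3′ on the gene's strand. The RefSeq starts of Cybb and Sod2 lie inside the longer gene extents of GENCODE given further on, and that of Cat lies a few bases inside. The same holds for Gpx1, whose start region is not shown. Capitals mark the NF-kappaB consensus, the interferon-stimulated response element core (GAAA repeated after a gap of 2 bases) and the PU.1 motif GAGGAA, on either strand.
Cybb, chrX:9469275-9469574, minus strand: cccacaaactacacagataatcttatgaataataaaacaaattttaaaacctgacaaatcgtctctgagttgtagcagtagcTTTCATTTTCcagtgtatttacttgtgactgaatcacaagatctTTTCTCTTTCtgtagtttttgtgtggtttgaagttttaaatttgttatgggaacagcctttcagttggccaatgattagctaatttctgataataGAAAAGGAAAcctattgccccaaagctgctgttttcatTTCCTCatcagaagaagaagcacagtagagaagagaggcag
Ncf1, chr5:134229576-134229875, minus strand: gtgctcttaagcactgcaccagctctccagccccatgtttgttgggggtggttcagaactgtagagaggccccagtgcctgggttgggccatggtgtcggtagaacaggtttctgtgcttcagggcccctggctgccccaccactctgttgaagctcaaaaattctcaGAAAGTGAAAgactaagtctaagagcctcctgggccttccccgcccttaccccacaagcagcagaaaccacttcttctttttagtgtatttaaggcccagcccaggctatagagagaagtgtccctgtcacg
Sod2, chr17:13007589-13007888, plus strand: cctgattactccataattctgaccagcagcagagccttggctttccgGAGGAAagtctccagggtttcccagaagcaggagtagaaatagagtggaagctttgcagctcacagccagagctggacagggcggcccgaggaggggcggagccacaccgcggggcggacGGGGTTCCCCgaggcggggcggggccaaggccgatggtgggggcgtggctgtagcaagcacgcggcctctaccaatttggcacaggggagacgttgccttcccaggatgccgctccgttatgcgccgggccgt
Cat, chr2:103485104-103485403, minus strand: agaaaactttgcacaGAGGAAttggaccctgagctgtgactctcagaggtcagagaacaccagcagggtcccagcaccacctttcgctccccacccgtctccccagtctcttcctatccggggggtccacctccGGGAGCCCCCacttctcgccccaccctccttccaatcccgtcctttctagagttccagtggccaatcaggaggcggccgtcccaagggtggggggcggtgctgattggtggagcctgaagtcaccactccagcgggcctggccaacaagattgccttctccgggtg

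The Cybb region held 3 matches to the response element core, beginning 168, 124 and 29 bases before the start, and a PU.1 motif just after the start. Such a core was present in 3.44% of the 32851 RefSeq start regions of this length. Ncf1 held 1 core, 82 bases before the start, and none of the other matched members did. Sod2 held the NF-kappaB consensus 83 bases before the start, where the same bases match on both strands, and it held GAGGAA once, as did Cat. Cat also held an NF-kappaB match on both strands, 116 bases before its start, and Gpx1 held 1 match 55 bases before its start, and both had lower RNA at 24 h. The consensus was present in 8.46% of all start regions and GAGGAA in 28.3%. Of the other motifs searched, GGGCGG (Sp1) occurred in 35.7% of all start regions, 4 times in those of Sod1 and Sod2 and in no copy in that of Cybb. The antioxidant response element core TGACNNNGC, present in 12.4%, and TATAAA, present in 13.6%, were matched among the members in Sod1 only. None of the matches in capitals overlapped GGGCGG. A match is a string of letters in this window and was not tested as a binding site. Sequences were matched for 7 of the members.

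At 4 h the oxidase genes and Sod2 were higher in MPLA-treated cells by DESeq2, of which Cyba and Ncf4 turned negative with edgeR, and Cat, Sod1 and Gpx1 were lower, Cat most of all. At 24 h the directions by DESeq2 were as at 4 h, Cyba again turning negative with edgeR, and Gpx1, Cat and Sod1 stood between 29.8% and 53.0% of control. At 3 d after priming Sod2, Rac2, Cybb and Ncf4 were still more than 2-fold higher. At a DESeq2 adjusted p under 0.05 in the authors' deposited tables, 6 of the 9 members were called higher and 3 lower at 4 h, 6 and 3 at 24 h, and 7 and 2 at 3 d. The tables called many genes by this rule, 31.8% of tested genes higher and 31% lower at 4 h, 32.4% and 32.2% at 24 h, and 29.5% and 25.8% at 3 d. With the edgeR columns the members gave 4 higher and 4 lower at 4 h, 5 and 3 at 24 h, and 6 and 2 at 3 d. The background for edgeR was 13.5% higher and 50.1% lower at 4 h, 16.2% and 41.8% at 24 h, and 15.5% and 27.7% at 3 d. A change of at least 2-fold was seen for 4 higher and 0 lower members at 4 h, 5 and 2 at 24 h, and 4 and 0 at 3 d. Its background was 18.1% higher and 18.5% lower at 4 h, 12.8% and 16.4% at 24 h, and 6.38% and 5.2% at 3 d. The baySeq error rate was read without a direction of its own, and its calls were given the DESeq2 sign. By that rate 5 members were higher and 3 lower at 4 h and at 24 h, and 6 and 0 at 3 d. The background was 23.3% and 30.5% of all genes at 4 h, 19.6% and 31.3% at 24 h, and 11.6% and 4.84% at 3 d. The median log2 change of the 9 members was 0.92 at 4 h, 1.38 at 24 h and 0.53 at 3 d with DESeq2 in the authors' deposited tables, and -0.013, 0.97 and 0.40 with edgeR. The 3 comparisons share their control libraries, so their values are set side by side without a test between times.

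**Figure D1:**
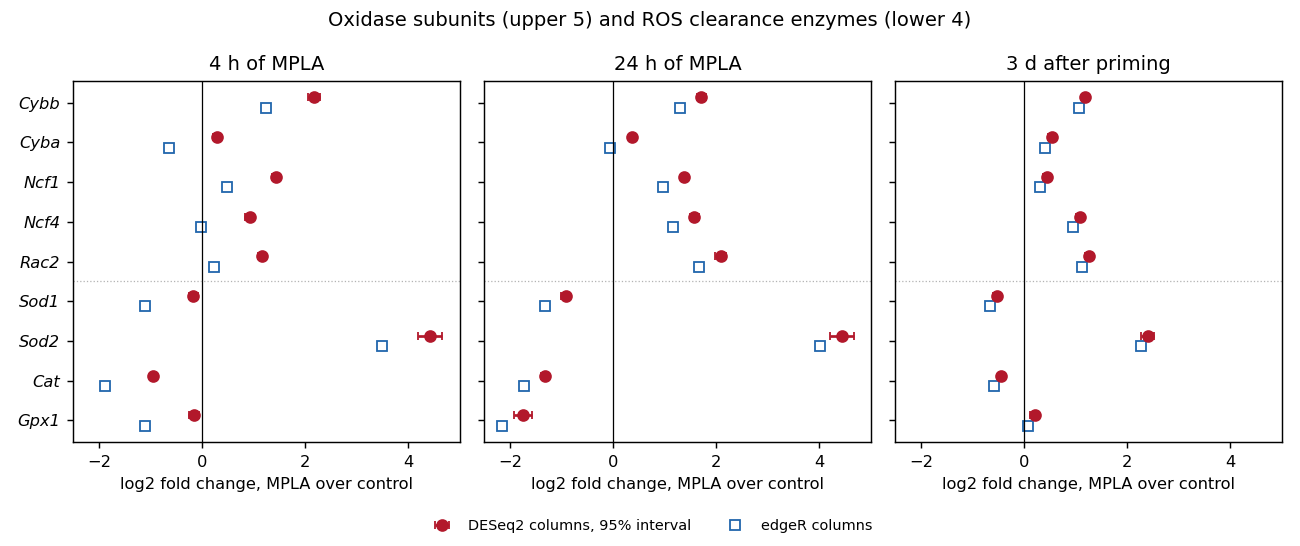
Log2 fold change of each member, MPLA over control, in the 3 comparisons; filled circles are the authors' DESeq2 columns with the 95% interval implied by the p-value (the widest possible interval where the p-value was stored as 0), and open squares are the authors' edgeR columns. Sod2 lies farthest right in each panel, and at 4 h Cyba lies on opposite sides of 0 in the 2 sets of columns, at 0.29 and -0.64.

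Cybb encodes gp91phox, the catalytic subunit that carries the electrons (ENSMUSG00000015340, GRCm38 chromosome X, 9435252 to 9487771). Its log2 change was 2.18 at 4 h, 1.71 at 24 h and 1.19 at 3 d in the authors' deposited tables, with implied SEs of at most 0.058, 0.046 and 0.032. These are 4.53-fold, 3.28-fold and 2.28-fold higher levels than in controls, and the adjusted p was stored as 0 each time. Cybb was also higher in the edgeR columns of the authors' deposited tables, by 1.24, 1.30 and 1.06. Its change exceeded that of 89.0% of tested genes at 4 h, 91.7% at 24 h and 94.9% at 3 d.

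Cyba encodes p22phox, the partner that holds gp91phox stable in the membrane (ENSMUSG00000006519, chromosome 8, 122424776 to 122432930). Its change was small, 0.29 ± 0.040 at 4 h, 0.36 ± 0.030 at 24 h and 0.53 ± 0.032 at 3 d (implied SE) in the authors' deposited tables, with DESeq2 adjusted p of 1.40e-12, 4.00e-33 and 3.95e-62. Its direction during exposure depended on scaling. In the edgeR columns of the authors' deposited tables Cyba was lower at 4 h (-0.64, adjusted p = 1.90e-51), did not pass at 24 h (-0.055, adjusted p = 0.0905) and was higher at 3 d (0.40). The baySeq error rates of Cyba were 0.387 at 4 h and 0.323 at 24 h, which are not calls. Within 1 table, the change of Cybb exceeded that of Cyba by 1.89 at 4 h, 1.36 at 24 h and 0.66 at 3 d on the log2 scale. The 95% intervals of the pair did not overlap at any of these times, 2.07 to 2.29 for Cybb against 0.21 to 0.37 for Cyba at 4 h, and the difference itself was not tested.

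Of the cytosolic subunits, Ncf1 encodes p47phox, the organizer that is phosphorylated on activation (ENSMUSG00000015950, chromosome 5, 134220053 to 134229625). Ncf1 was higher by 1.43 at 4 h and 1.38 at 24 h in the authors' deposited tables, with SEs of at most 0.038 and 0.037, and by 0.43 ± 0.031 at 3 d (DESeq2 adjusted p = 4.06e-43). Its edgeR values in the authors' deposited tables were 0.49, 0.97 and 0.30. Exons of Gtf2ird2 on the opposite strand cover 11.1% of the exonic bases of Ncf1, and the use of strand in counting is not stated here. Gtf2ird2 itself stood at 0.28, -0.36 and -0.21 with DESeq2 and at -0.65, -0.77 and -0.34 with edgeR in the authors' deposited tables.

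Ncf4 encodes p40phox, which binds a phosphoinositide of the phagosome membrane (ENSMUSG00000071715, chromosome 15, 78244801 to 78262580). It stood at 0.92 ± 0.047 at 4 h, at 1.58 with an SE of at most 0.042 at 24 h, and at 1.08 ± 0.037 at 3 d in the authors' deposited tables. The DESeq2 adjusted p was 8.99e-87 at 4 h and 3.35e-183 at 3 d. With edgeR the 4 h value in the authors' deposited table was -0.013 with an adjusted p of 0.803, while those at 24 h and 3 d were 1.16 and 0.95. Its 24 h change thus stood above that of 90.9% of tested genes and its 4 h change above that of 75.6%.

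Rac2 encodes the Rac GTPase of blood cells that activates the assembled oxidase (ENSMUSG00000033220, chromosome 15, 78559167 to 78572783). It was higher by 1.17 ± 0.040 at 4 h, by 2.09 with an SE of at most 0.056 at 24 h and by 1.25 ± 0.034 at 3 d in the authors' deposited tables, with DESeq2 adjusted p of 9.42e-189 at 4 h and 1.78e-300 at 3 d. The 24 h value is a 4.25-fold higher level and the highest of the 5 oxidase subunits at that time. Rac2 was higher with edgeR as well, by 0.24, 1.67 and 1.12 in the authors' deposited tables. The change of the widely expressed Rac1 lay below that of Rac2 by 0.82 at 4 h, 2.28 at 24 h and 1.39 at 3 d, and Rac1 itself stood at 0.35, -0.19 and -0.14 in the authors' deposited tables. With edgeR Rac1 was called lower at all 3 times, at -0.59, -0.61 and -0.27.

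Of the dismutases, Sod2 encodes the manganese enzyme of mitochondria (ENSMUSG00000006818, chromosome 17, 13006846 to 13040063). It was 21.4-fold higher at 4 h, 21.7-fold at 24 h and 5.26-fold at 3 d in the authors' deposited tables, as log2 changes of 4.42, 4.44 and 2.39 with SEs of at most 0.118, 0.118 and 0.064. The adjusted p was stored as 0 in all 3. With edgeR the log2 changes in the authors' deposited tables were 3.48, 4.02 and 2.27, and with DESeq2 Sod2 stood above 97.1%, 98.3% and 98.6% of tested genes. Of the 50-base windows in its annotated transcripts, 21.0% also occur in transcripts of other genes, so some of its reads may not have been assignable.

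Sod1 encodes the copper and zinc enzyme of the cytosol (ENSMUSG00000022982, chromosome 16, 90220754 to 90226329). It was lower each time, at -0.17 ± 0.045 at 4 h, -0.92 ± 0.044 at 24 h and -0.53 ± 0.038 at 3 d in the authors' deposited tables, with DESeq2 adjusted p of 3.10e-04, 3.24e-93 and 1.03e-42. At 24 h this is 53.0% of the control level. The edgeR values in the authors' deposited tables were -1.11, -1.33 and -0.67, also called lower, while baySeq gave an error rate of 0.103 at 3 d. The change of Sod2 exceeded that of Sod1 by 4.59 at 4 h, 5.35 at 24 h and 2.93 at 3 d on the log2 scale. Of the 50-base windows of Sod1, 3.42% also occur in the processed pseudogene Gm8566.

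Cat encodes catalase, which breaks down hydrogen peroxide in peroxisomes (ENSMUSG00000027187, chromosome 2, 103453849 to 103485160). It was lower by DESeq2 at each time, with log2 changes of -0.94 ± 0.038 at 4 h, -1.32 with an SE of at most 0.035 at 24 h and -0.46 ± 0.030 at 3 d in the authors' deposited tables. Relative to controls its level was 52.1% at 4 h, 40.0% at 24 h and 72.7% at 3 d. The edgeR columns of the authors' deposited tables also called it lower, at -1.88, -1.73 and -0.59, and baySeq did at 4 h and 24 h but gave an error rate of 0.669 at 3 d. Its DESeq2 change lay above that of 26.4%, 15.6% and 18.3% of tested genes.

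Gpx1 encodes the main cytosolic glutathione peroxidase (ENSMUSG00000063856, chromosome 9, 108338903 to 108340343), and of the 9 members it alone had opposite DESeq2 signs between times. By DESeq2 it was slightly lower at 4 h (-0.16 ± 0.050, adjusted p = 0.00223), 3.35-fold lower at 24 h (-1.75 ± 0.090, adjusted p = 1.78e-83) and slightly higher at 3 d (0.20 ± 0.046, adjusted p = 3.81e-05) in the authors' deposited tables. With edgeR it was lower at 4 h (-1.10, adjusted p = 6.05e-91) and 24 h (-2.16) in the authors' deposited tables, and baySeq also called both. The 3 d value was 0.070 with an edgeR adjusted p of 0.302 in the authors' deposited table and is not called by that tool. Nor did baySeq call Gpx1 at 3 d (error rate 0.759). The 24 h decrease was the deepest of any member at any time by DESeq2, and its SE was the largest among the 16 member values that have one. Against Gpx4, the peroxidase that reduces lipid peroxides, the change of Gpx1 was higher by 0.25 at 4 h, lower at 24 h (-1.01) and higher by 0.55 at 3 d.

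**Figure D2:**
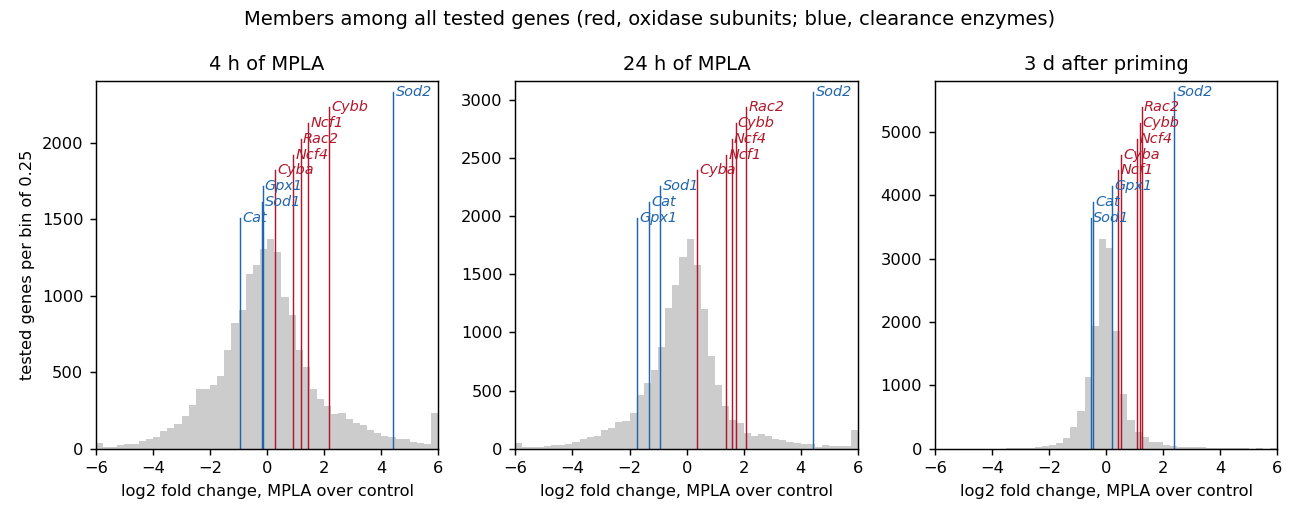
Histograms of the log2 fold changes of all tested genes (MPLA over control, DESeq2 columns, outermost bins also holding the values beyond 6) with a line for each member, red for oxidase subunits and blue for clearance enzymes. At 24 h the lines of Gpx1, Cat and Sod1 lie left of 0 and those of the subunits right of it, and Sod2 lies above 97.1% or more of tested genes in each panel.

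Taking the 3 changes of each member together, Ncf4 and Rac2 were the closest pair, with a Euclidean distance of 0.59 on the log2 scale over the 3 comparisons. Ncf1 and Ncf4 (0.84) and Sod1 and Cat (0.87) came next. Of 15037 other genes tested in all 3 tables, the nearest to Sod2 were C130026I21Rik (0.48), Il7 (0.54), which encodes the cytokine interleukin 7, and Pnp2 (0.55). Il7 stood at 4.17, 4.01 and 2.62 in the authors' deposited tables.

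The oxidase has further partners, 15 of which were listed and tested in every table. By DESeq2 in the authors' deposited tables, 9 of the 15 were called higher and 5 lower at 4 h, 8 and 3 at 24 h, and 12 and 2 at 3 d. Their median log2 change in the authors' deposited tables was 0.28 at 4 h, 0.27 at 24 h and 0.24 at 3 d with DESeq2, and turned sign at the first 2 times with edgeR, at -0.66, -0.15 and 0.11. With edgeR 2 were higher and 12 lower at 4 h, and 6 and 9 at 24 h, in the authors' deposited tables. At 3 d 8 were higher and 3 lower. Over all tested genes DESeq2 called 31.8% higher and 31% lower at 4 h and 32.4% and 32.2% at 24 h. At 3 d it called 29.5% and 25.8%. The edgeR shares of all genes were 13.5% and 50.1%, 16.2% and 41.8%, and 15.5% and 27.7%.

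Cybc1, listed as BC017643 in the tables and matched by its identifier, encodes the chaperone of the membrane core. It stood at 0.28 ± 0.055 at 4 h (-0.66 with edgeR), 1.08 ± 0.041 at 24 h and 0.24 ± 0.042 at 3 d in the authors' deposited tables. Rap1a, a small GTPase found with the membrane core, stood at 0.27, 0.10 and -0.17 in the authors' deposited tables. Its 24 h value did not pass (DESeq2 adjusted p = 0.104). The edgeR columns called Rap1a lower at all 3 times, at -0.67, -0.32 and -0.30. Hvcn1, the proton channel that balances the charge the oxidase moves, was lower at 4 h (-0.51 ± 0.069), did not pass at 24 h (-0.03, DESeq2 adjusted p = 0.638) and was higher at 3 d (0.68 ± 0.043) in the authors' deposited tables. The edgeR column called Hvcn1 lower at 24 h (-0.44).

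Kinases that phosphorylate p47phox were also listed. Prkcd was higher each time, with 1.47, 0.71 and 0.31 at the 3 times in the authors' deposited tables, and edgeR also called it higher each time. Prkcb stood at -0.15 at 4 h and was higher by 1.59 at 24 h and 1.32 at 3 d in the authors' deposited tables, where edgeR called the 24 h and 3 d values higher too. The kinases Pak1 and Pak2, which Rac activates, stood at -0.72 and 1.05 at 4 h, -0.71 and 0.27 at 24 h, and 0.11 and 0.13 at 3 d in the authors' deposited tables. With edgeR Pak2 stood at 0.11 at 4 h and -0.15 at 24 h.

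The list also held exchange factors that load Rac. Vav1 did not pass at 4 h (-0.02, DESeq2 adjusted p = 0.747) and was higher by 1.46 at 24 h and 0.79 at 3 d in the authors' deposited tables. The edgeR column called Vav1 lower at 4 h (-0.95). Vav2 was 6.06-fold lower at 4 h (-2.60 ± 0.092) and stood at 0.03 and 0.44 at the later times in the authors' deposited tables. Vav3 stood at 1.01 at 4 h, -1.27 at 24 h and -0.03 at 3 d in the authors' deposited tables. Its 4 h value with edgeR was 0.08 (edgeR adjusted p = 0.143). Prex1 was higher by 0.58, 1.02 and 0.93 (edgeR -0.36, 0.61 and 0.80), and Dock2 stood at -0.22, 0.03 and 0.20 in the authors' deposited tables. The inhibitors that hold Rac in the cytosol, Arhgdia and Arhgdib, stood at 0.80 and 0.36 at 4 h, 0.27 and 1.55 at 24 h, and 0.08 and 0.44 at 3 d in the authors' deposited tables. With edgeR both had negative 4 h values in the authors' deposited table, -0.13 and -0.57.

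Of 9 genes of other NADPH oxidases, Nox1, which encodes a catalytic subunit related to gp91phox, was called higher at all 3 times by both tools. It was 43.0-fold higher at 4 h (5.43 ± 0.33, DESeq2 adjusted p = 1.26e-60), 7.67-fold at 24 h (2.94 ± 0.40) and 4.53-fold at 3 d (2.18 ± 0.32) in the authors' deposited tables. Its SEs are several times those of the members. Noxo1, the organizer that works with Nox1, was lower at 4 h (-2.05 ± 0.73, adjusted p = 0.00849) and 24 h (-1.32 ± 0.54, adjusted p = 0.0237) by DESeq2 and stood at -0.11 at 3 d in the authors' deposited tables. Nox4 and Noxa1 had no row in any of the 3 tables, and Nox3 and the dual oxidase genes either had none or were listed at 0 in 1 of the groups compared.

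Of 22 further clearance enzymes 19 were tested in every table, and by DESeq2 in the authors' deposited tables, 9 were called higher and 8 lower at 4 h, 9 and 5 at 24 h, and 7 and 4 at 3 d. Their median log2 change in the authors' deposited tables was 0.27 at 4 h, 0.18 at 24 h and 0.03 at 3 d with DESeq2, and of opposite sign with edgeR, at -0.67, -0.23 and -0.10. With edgeR, over the 21 listed in the authors' deposited tables, 5 were higher and 11 lower at 4 h. At 24 h 8 were higher and 10 lower, and at 3 d 7 and 8. The shares over all genes by each tool are those given with the oxidase partners. Glrx, glutaredoxin, was higher by 2.18, 3.50 and 2.09 and was the highest of the list at 24 h and 3 d in the authors' deposited tables. Prdx5, a peroxiredoxin of mitochondria and peroxisomes, was higher by 2.35 at 4 h and 3.05 at 24 h, and by 0.29 at 3 d, in the authors' deposited tables. Txn1, thioredoxin, was higher by 2.07 at 4 h and 1.85 at 24 h and did not pass at 3 d (0.03, DESeq2 adjusted p = 0.576) in the authors' deposited tables. Txnrd1, which reduces it, was higher by 1.43 at 4 h, 1.21 at 24 h and 0.63 at 3 d in the authors' deposited tables. These 4 were called higher with edgeR wherever DESeq2 called them.

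The lowest values belonged to enzymes of several kinds. In the authors' deposited tables Gpx3, a secreted glutathione peroxidase, was lower at all 3 times, at -0.42, -1.87 and -0.83, and so was Gpx4, at -0.41, -0.74 and -0.35. The mitochondrial thioredoxin reductase Txnrd2 was lower at 4 h (-0.97) and 24 h (-0.68) in the authors' deposited tables. At 3 d Txnrd2 did not pass (-0.11, DESeq2 adjusted p = 0.230), while edgeR called it lower (-0.25). Txnrd3, a relative of Txnrd2, was lower at 4 h (-1.11) and 24 h (-0.47) and higher at 3 d (0.42) in the authors' deposited tables. The endoplasmic reticulum peroxiredoxin Prdx4 was higher at 4 h by DESeq2 (0.43, against -0.51 with edgeR), did not pass at 24 h (-0.0012) and was lower at 3 d (-0.45 ± 0.048) in the authors' deposited tables. Srxn1, which repairs peroxiredoxins, was lower at 4 h (-0.57 ± 0.056) and higher at 24 h (0.79 ± 0.042) and 3 d (0.51 ± 0.039) in the authors' deposited tables.

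**Figure D3:**
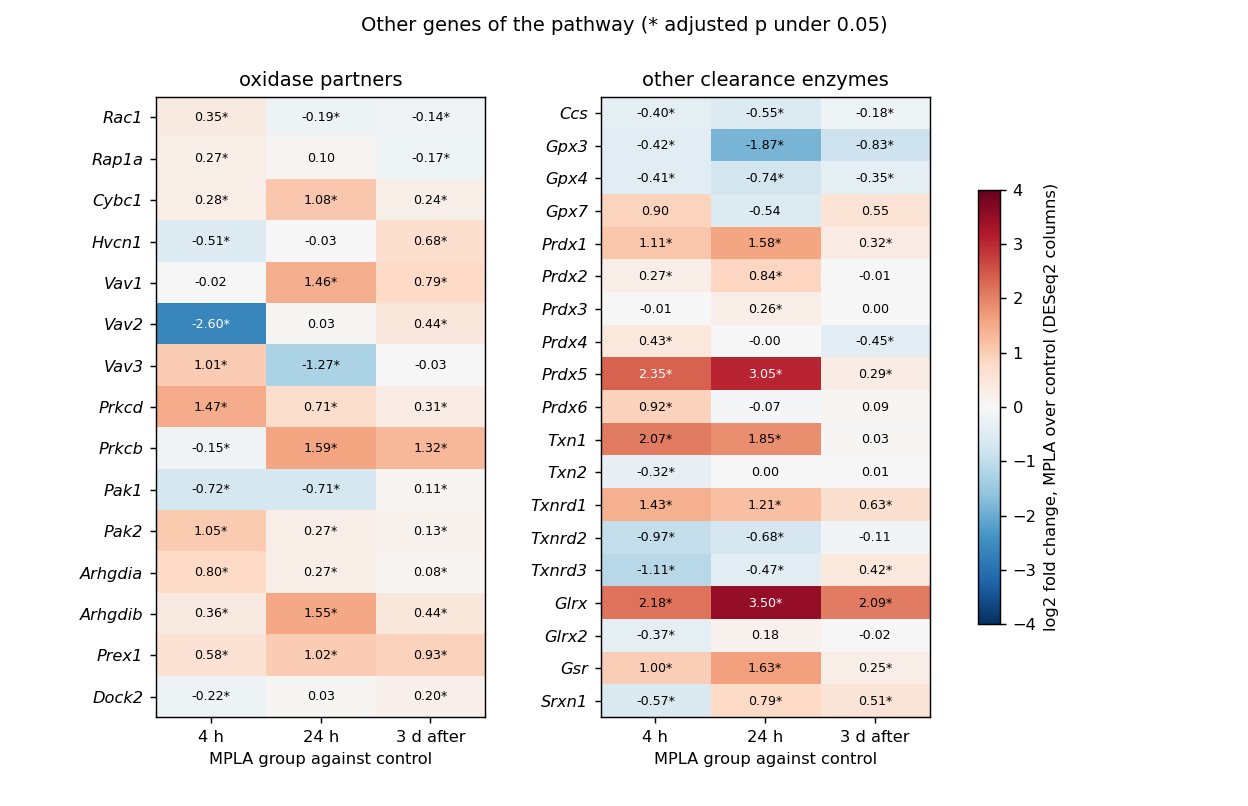
Log2 fold change, MPLA over control (DESeq2 columns), of 15 oxidase partners and of the 19 other clearance enzymes tested in all 3 tables, one column per comparison, with an asterisk where the adjusted p was under 0.05. Vav2 is the darkest blue cell at 4 h (-2.60), and Glrx is red in each column, at 2.18, 3.50 and 2.09.

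Neutrophils also carry this oxidase, so their markers were read beside it. Of 10 neutrophil markers, DESeq2 tested 5 at 4 h, 4 at 24 h and 3 at 3 d in the authors' deposited tables. At 4 h it called 0, 0 of those listed had an unadjusted DESeq2 p under 0.05, and 2 were called lower by edgeR. At 24 h Camp was higher (3.49 ± 0.90) and Prtn3 and Mmp8 lower, and at 3 d Camp (1.43 ± 0.48) and Mmp8 (0.48 ± 0.067) were higher, in the authors' deposited tables. The edgeR values of Camp were 3.61 at 24 h and 2.97 at 3 d, so the size at 3 d depended on the tool. Ly6g had no row in any of the 3 tables, Elane, Ngp, Ltf and Prtn3 were listed at 0 after 24 h of MPLA, and S100a9 was listed at 0 in controls. Of the macrophage markers, 9 were listed with reads in both groups in all 3 tables, Csf1r among them at -1.01, -1.52 and -0.54 and Adgre1 at 1.22, 2.15 and 1.17. Of B cell markers, DESeq2 tested 5 at 4 h, 3 at 24 h and 2 at 3 d in the authors' deposited tables. It called 0 higher and 1 lower at 4 h, 0 and 2 at 24 h, and 1 and 1 at 3 d. Of T cell markers it tested 1 at 4 h, 1 at 24 h and 0 at 3 d, and called 1 lower, at 24 h. The shares of all tested genes called are given with the counts of the members. The B cell antibody gene Ighm was called lower at all 3 times in the authors' deposited tables. It was lower 3.37-fold at 4 h, 503-fold at 24 h and 85.6-fold at 3 d. DESeq2 tested 5, 3 and 4 fibroblast markers at the 3 times and called 2, 1 and 1 of them higher and 0 lower. It tested 5, 3 and 2 dendritic cell markers. Of these it called 3 higher at 4 h, 2 higher and 1 lower at 24 h, and 0 at 3 d. The fibroblast gene Dcn, called higher at all 3 times, and the chemokine receptor gene Ccr7, called higher at 4 h and 24 h, were listed at 0 in controls. Dcn stood at 3.65, 6.86 and 4.70 with DESeq2 and at 3.95, 8.63 and 9.81 with edgeR in the authors' deposited tables. Among the fibroblast markers edgeR called 2 higher and 1 lower at 4 h, 1 and 2 at 24 h, and 2 and 0 at 3 d. The edgeR shares over all genes are given with the oxidase partners. Those called lower at 24 h were Col1a1 (-2.94) and Col1a2 (-2.56), at -1.90 and -1.88 with DESeq2, which did not call them. The part of cell makeup in the members' changes was not tested, and in bulk RNA fewer cells of a type and less RNA per cell cannot be told apart.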

How the data were processed

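RNA-seq was made from 12 macrophage libraries with a kit that keeps strand and selects polyadenylated RNA, per the labels' protocols. Per the submitters' processing notes, bcl2fastq, TopHat2, HTSeq, edgeR, DESeq2 and DESeq were used with build mm10; versions, counting settings and annotation are not given in the sources used here. The deposited files are 3 tables, 1 per MPLA group against the same 3 controls, each normalized on its own. Per the file headers, the authors computed log2 fold changes and p-values with DESeq2 and with edgeR, an unscaled log2 ratio, and baySeq scores. An adjusted baySeq score under 0.05 in the deposited tables was read as a call.

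Deposited log2 values run control over MPLA; here the sign is reversed. The direction follows the order of groups in the comparisons and the strongly negative deposited values of Il6, Tnf, Cxcl10 and Il12b. A gene was called at an adjusted p under 0.05 from the authors' DESeq2 columns over all genes of its table, and an adjusted p given as NA stayed untested. Each SE is the size of the log2 fold change over the normal quantile of its p-value, which assumes a Wald test. The arithmetic was checked on simulated statistics, with Python 3.11.15, SciPy 1.17.1 and pandas 2.3.3. The simulated p-values were made under the same assumption, so whether it holds for the deposited p-values was not tested. Depth is unknown, and levels cannot be compared between genes. Alternatives, from columns that the authors computed with edgeR and baySeq, were each tool alone, all 3 methods together, no filter, an adjusted p under 0.01, a 2-fold minimum and the unscaled ratio less its median. Gene positions are from GENCODE M21 (GRCm38), and shared sequence was read in windows of 50 bases on either strand.

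The members and gene lists were chosen with earlier results of these data known. All 9 members were named, as were the oxidase partners and other oxidases described; other clearance enzymes were named where called and among the 3 highest or lowest of a table. The 3 genes nearest to the most changed member were named. Gtf2ird2 was added after its overlap with Ncf1 was seen. 1 further oxidase partner is not reported here.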

Additional observations from a re-analysis of the deposited data

How the results depend on the processing

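Every call count of the 9 members stayed within 1.5 times of its value when the filter was dropped and at an adjusted p under 0.01. A 2-fold minimum left 4 members called at 4 h, 0 of them lower, and 4 at 3 d, 4 higher and 0 lower. At 3 d baySeq, and all 3 methods together, called 0 members lower. With edgeR the oxidase partners gave 2 higher and 12 lower at 4 h and 9 lower at 24 h. The other clearance enzymes gave 5 higher at 4 h, 10 lower at 24 h and 8 lower at 3 d. The edgeR shares over all genes are given with the oxidase partners. Of the 27 member fold changes, 3 changed sign with edgeR, Cyba at 4 h (-0.64) and 24 h (-0.055) and Ncf4 at 4 h (-0.013), and Gpx1 at 3 d fell short of the threshold (0.070). For the 9 members edgeR minus DESeq2 was nearly 1 constant per table, -0.937 to -0.936 at 4 h, -0.416 to -0.413 at 24 h and -0.132 to -0.126 at 3 d, so these sign changes follow the scaling. Whether the test also moves the counts of calls was not tested. The unscaled ratio less its median kept the DESeq2 sign of all 27. Taking off the median sets the middle gene to 0, close to where the DESeq2 columns have it. That alternative therefore could not test the scaling. No paired analysis was possible because the deposited tables hold no values per library, and leaving out single libraries was not run for the same reason.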
